A study of Mus musculus with 6 samples.

Results

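The genes described here are the WNT ligands, their Frizzled, LRP and LGR receptors, the secreted SFRP and DKK antagonists, the R-spondins, the Axins and the TCF/LEF transcription factors of the mouse. They were picked out by gene symbol, from families chosen with earlier results of these data known. Such a symbol was carried by 52 of the 55367 rows of the count table. Of these, 41 had a mean of at least 10 counts over the 6 libraries and were kept, and all 41 passed the filter for testing. The other 11 were Wnt1, Wnt3a, Wnt6, Wnt8a, Wnt9b, Wnt10a, Wnt10b, Wnt16, Dkk1, Dkk4 and Rspo4. Just inside the minimum were Wnt2, with 13, 11 and 10 counts in WT and 8, 14 and 7 counts in Fmr1-KO, and Wnt11, with 9 to 20 counts. Just outside it were Rspo4, with 3 to 10 counts, and Wnt3a, with 0, 1 and 1 counts in WT and 6, 8 and 11 counts in Fmr1-KO.

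WNT ligands are lipid-modified secreted proteins that bind a Frizzled receptor, alone or together with the co-receptors LRP5 and LRP6. In the beta-catenin branch of the pathway, receptor engagement takes Axin away from the complex that degrades beta-catenin, which then acts with TCF/LEF factors in the nucleus, and other branches control planar cell polarity and calcium. R-spondins, bound by LGR4, LGR5 and LGR6, keep Frizzled receptors at the cell surface, whereas SFRPs bind WNT proteins and DKKs act on LRP5 and LRP6. In the developing cortex these genes are known for patterning by the cortical hem, a WNT-secreting border of the embryonic cortex, for the balance of progenitor division and neurogenesis, and for axon and synapse growth.

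The RNA-seq libraries came from cerebral cortex of P1 (postnatal day 1) C57BL/6J pups whose dissociated cells were cultured for 2 days in vitro. There were 3 WT libraries and 3 Fmr1-KO libraries, the knockout lacking FMRP, the RNA-binding protein missing in fragile X syndrome. Cells had been freed of ACSA-2-positive astrocytes and of myelin before plating, according to the methods of the study, and the labels call them cortical neurons. The knockout is carried by every cell of the animal, and the labels do not say how many pups stand behind a library, so P values measure the spread between these libraries.

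Total counts ran from 30348556 to 35126207, and the spread within a genotype exceeded that of counting alone. Fmr1, the targeted gene, had 4113, 3710 and 3656 counts in WT and 1761, 1879 and 1972 counts in Fmr1-KO, with a log2 fold-change of -0.98 (SE 0.04; adjusted P 2.25e-13). Adjusted P values are those of edgeR's quasi-likelihood test over 16976 genes with Benjamini-Hochberg adjustment. A difference was called where this value was under 0.05, and every log2 fold-change is Fmr1-KO relative to WT. Transcripts of Xist and of the Y chromosome were present in all 6 libraries, so each held RNA of both sexes. Xist stood at 298 to 312 CPM (counts scaled to a common library size) in WT and at 825 to 1017 CPM in Fmr1-KO, and the Y-linked Eif2s3y fell by 0.47 on the log2 scale (adjusted P 9.45e-07). Levels of sex-linked transcripts thus moved with genotype, and the part of the mix of sexes in the results was not tested. None of the 41 genes lies on chromosome X or Y.

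The markers of the labelled cell type were present in every library, with a summed level over 10 neuronal genes of 4888 to 5018 CPM in WT and 4225 to 4422 CPM in Fmr1-KO. Other cells were present too. The 8 astrocyte genes, led by Gfap, summed to 5090 to 5211 CPM in WT and 4488 to 4861 CPM in Fmr1-KO, in spite of the astrocyte depletion. Gfap fell from a mean of 2649 to 2297 CPM and Aqp4 from 524 to 319 CPM. The list was mixed, with 4 genes called lower and 2, Aldoc and Gja1, higher (of all tested genes, 21.9% and 20.7%). In Fmr1-KO, 9 of 10 neuronal genes and all 8 genes of the oligodendrocyte lineage were called lower, beside 21.9% of all tested genes. The neuron subtypes were mixed, with 3 of 7 excitatory neuron genes lower and 4 higher, and 4 of 8 interneuron genes lower and 4 higher. Of 8 genes each, 6 of microglia and 5 of meningeal fibroblasts were called lower and 0 higher. Of the 8 pericyte and mural cell genes, 3 were called lower and 4 higher. All 8 proliferation genes, all 5 tested intermediate progenitor genes and 7 of 8 choroid plexus genes were called higher, beside 20.7% of all tested genes. The 8 endothelial genes summed to 46.4 to 49.5 CPM in WT and 71.3 to 77.1 CPM in Fmr1-KO. Slco1c1 made up most of this sum, with means of 33.4 CPM in WT and 50.3 CPM in Fmr1-KO. Of the 8 genes, Kdr rose by 1.23, Slco1c1 by 0.59 and Flt1 by 0.41 on the log2 scale, and Cdh5 fell by 0.66. Pecam1 and Esam were not called, and Cldn5 and Tek, with means of 5.17 and 10.5 counts, were not tested. In bulk RNA, fewer cells of a type and less RNA per cell cannot be told apart, and the part of these shifts in the WNT results was not tested.

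**Figure D1:**
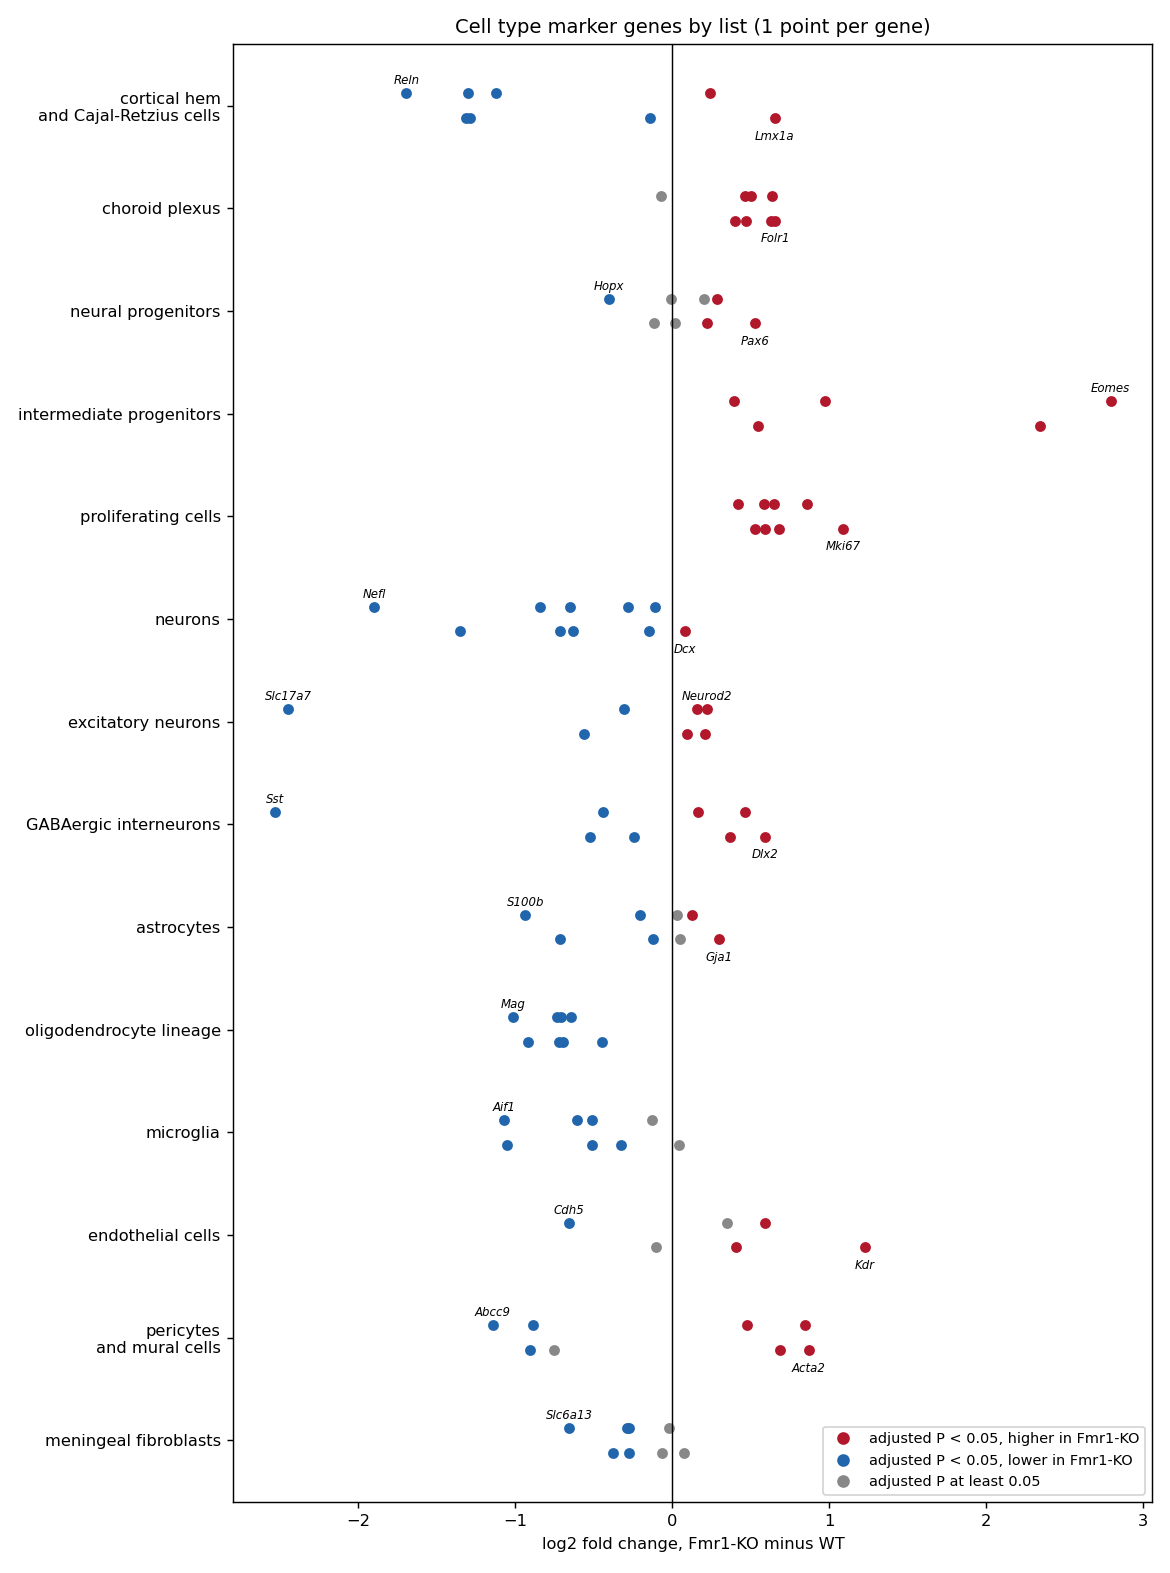
Log2 fold-change (x axis, Fmr1-KO minus WT) of each tested cell type marker, 1 point per gene, in rows by marker list, with the most changed called gene in each direction named. All 8 points of the proliferating cells lie to the right of 0 and all 8 of the oligodendrocyte lineage to the left.

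Of the 41 WNT genes, 13 rose and 6 fell in Fmr1-KO. The genes that rose were the ligands Wnt2b, Wnt8b, Wnt9a and Wnt5a, the receptors Fzd5, Fzd8, Fzd6, Fzd2 and Fzd3, the co-receptor Lrp6, the antagonists Sfrp5 and Sfrp1, and Rspo2. The genes that fell were Rspo3, Lgr5, Lgr4, Tcf7l2, Tcf7l1 and Wnt7a. The 13 higher genes made up 31.7% of the 41, beside 20.7% of all tested genes called higher, and the 6 lower genes made up 14.6%, beside 21.9% of all tested genes called lower. In either direction the shares were 46.3% of the WNT genes and 42.6% of all genes. The median log2 fold-change was 0.06 over the WNT genes and 0.01 over all tested genes, and the median absolute change was 0.15 in both. Fmr1-KO libraries all lay above the WT libraries for 14 of the 41 genes (25.4% of all genes) and all below for 5 (26.3% of all genes).

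When a change of more than 1.2-fold was required, 8 of the WNT genes remained called higher, where 5.2% of all genes were called, and 2 remained called lower, where 7.89% of all genes were called. The 8 were Wnt2b, Fzd2, Fzd5, Fzd6, Fzd8, Sfrp1, Sfrp5 and Rspo2, and the 2 were Rspo3 and Tcf7l2. These 10 genes also kept their call and direction with DESeq2, under each other normalization and filter, with the replicate block and without any single library, except that Wnt2b was too low for the stricter filter and has no value there. Wnt9a, Wnt5a and Lgr4 kept theirs in all of these settings except the required fold. The calls of Wnt7a, Wnt8b, Fzd3, Lrp6 and Tcf7l1 were lost with DESeq2 and without at least 1 of the libraries, and that of Lgr5 was lost without Fmr1-KO replicate 1.

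**Figure D2:**
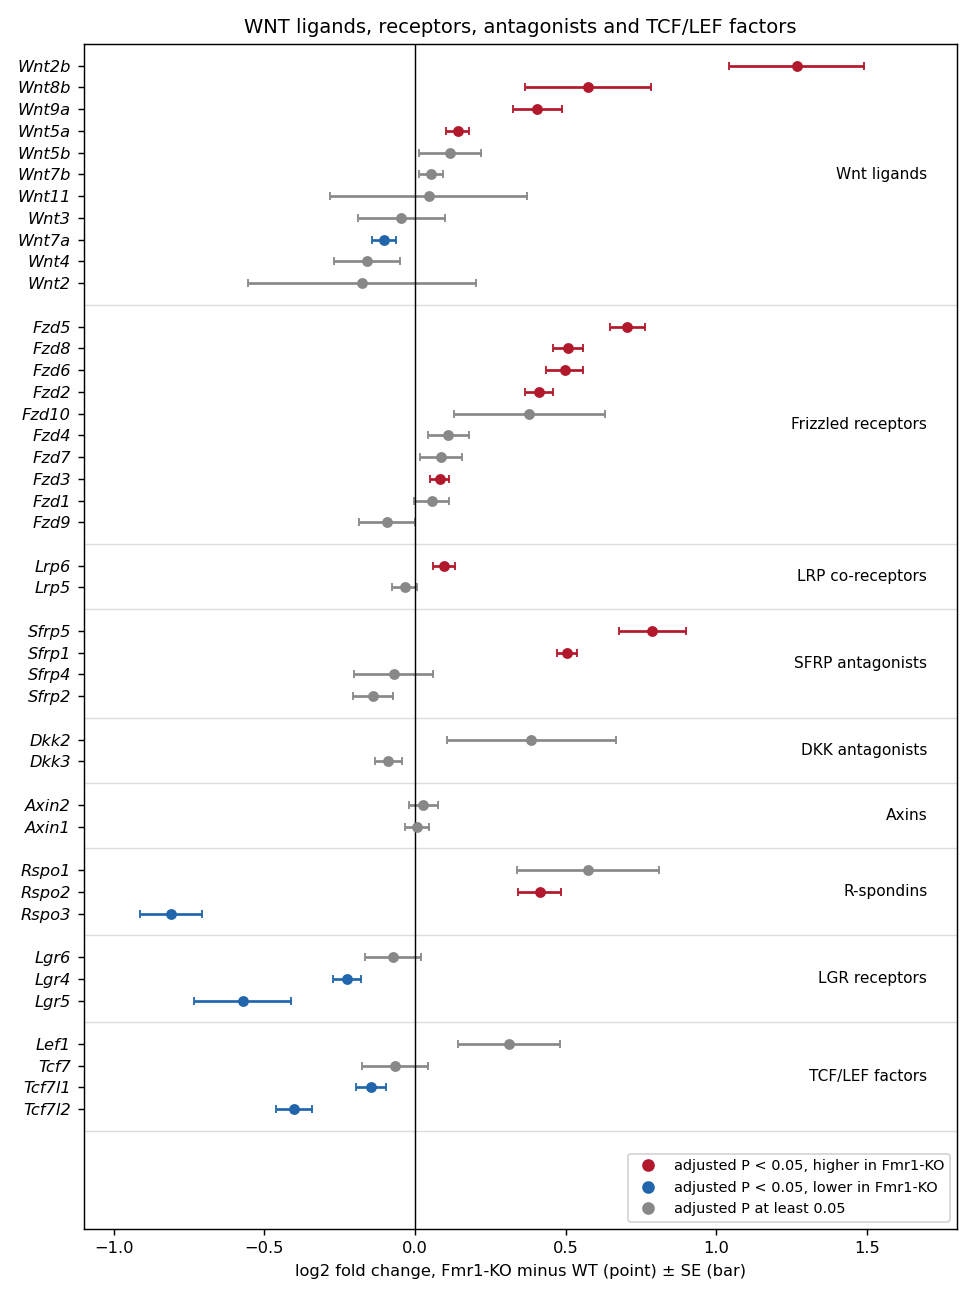
Log2 fold-change (x axis, Fmr1-KO minus WT; bars are ± SE, n = 3 libraries per genotype) of the 41 genes, grouped by role, with red for genes called higher, blue for genes called lower and grey for genes not called. Wnt2b stands farthest to the right at 1.27 and Rspo3 farthest to the left at -0.81.

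Promoter sequence is shown for the called genes with the largest change in each direction whose RefSeq start lies within 10 bases of the 5′ end of the gene in GENCODE to show which letters they hold. RefSeq promoters of GRCm38.p6 were matched by symbol for 26 of the 41 genes, which have 34 annotated starts. Each sequence holds the 250 bases before the start, 5′ to 3′ on the strand of the gene. Capitals mark the GC box (GGGCGG) and, where present, the TATA box (TATAAA) and the TCF/LEF core (CTTTGAT or CTTTGAA), all read on both strands; neighbouring matches can abut or share a base and then run together. Fzd5 and Sfrp5 were called higher, and Tcf7l2 and Lgr4 were called lower. The windows are chr1:64737751-64738000 on the minus strand, chr19:42202253-42202502 on the minus strand, chr19:55741560-55741809 on the plus strand and chr2:109917397-109917646 on the plus strand. In GENCODE M21, that of Fzd5 overlaps the gene model Gm38058 and the others overlap no other gene.
Fzd5: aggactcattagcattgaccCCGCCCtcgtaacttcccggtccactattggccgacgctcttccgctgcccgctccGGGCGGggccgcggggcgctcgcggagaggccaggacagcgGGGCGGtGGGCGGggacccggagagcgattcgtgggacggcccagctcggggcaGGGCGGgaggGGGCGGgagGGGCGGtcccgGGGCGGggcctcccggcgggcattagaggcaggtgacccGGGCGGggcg
Sfrp5: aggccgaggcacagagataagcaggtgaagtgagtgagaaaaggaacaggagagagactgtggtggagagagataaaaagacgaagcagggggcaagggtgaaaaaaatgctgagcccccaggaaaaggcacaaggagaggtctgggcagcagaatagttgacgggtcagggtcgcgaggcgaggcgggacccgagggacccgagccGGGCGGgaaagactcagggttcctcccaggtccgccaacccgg
Tcf7l2: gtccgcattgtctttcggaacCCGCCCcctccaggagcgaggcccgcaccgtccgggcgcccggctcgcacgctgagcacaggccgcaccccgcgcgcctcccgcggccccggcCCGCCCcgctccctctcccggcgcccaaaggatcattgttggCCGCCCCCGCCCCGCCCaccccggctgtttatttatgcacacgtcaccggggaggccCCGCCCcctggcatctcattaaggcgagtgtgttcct
Lgr4: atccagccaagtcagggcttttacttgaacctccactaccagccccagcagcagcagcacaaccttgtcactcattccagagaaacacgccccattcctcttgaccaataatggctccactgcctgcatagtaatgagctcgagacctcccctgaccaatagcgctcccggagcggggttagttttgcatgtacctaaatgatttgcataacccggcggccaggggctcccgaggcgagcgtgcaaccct

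The Fzd5 window is 76.4% G or C and holds 9 GC boxes, that of Tcf7l2 is 72.8% and holds 6, that of Sfrp5 is 59.6% and holds 1, and that of Lgr4 is 55.6% and holds none. The GC box letters were found before 25 of the 34 starts, and before 32.7% of the 32851 promoters in the table. Among the 9 called genes with an entry, 7 of 10 starts had them. The TCF/LEF core letters were found in 7.48% of all promoters and before none of the 10 starts of called genes. They stood before 1 start each of Wnt5b and Wnt11, neither of which was called, and the matches are shown with their flanks at chr6:119449442-119449466 on the minus strand and chr7:98835052-98835076 on the plus strand. The Wnt5b start is an internal one, 94961 bases downstream of the 5′ end of the gene, and the first letters of the matches are 71 and 51 bases before the starts.
Wnt5b: taagtctctCTTTGATctgctccct
Wnt11: cgtgggcggATCAAAGcgacggtcc

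The ligand RNA of these cultures was mainly that of Wnt7a, Wnt7b and Wnt5a. Per kilobase of exon, the 11 ligands summed to 45.4 ± 0.65 CPM per kb in WT and 46.2 ± 1.16 CPM per kb in Fmr1-KO (SD, n = 3), and these 3 genes made up 81.7% to 84.5% of the sum in every library. Wnt7a, which with Wnt7b acts in the forebrain on progenitors, synapses and vessels, had the highest level per length among ligands, 20.9 CPM per kb in WT. It had 65.4, 67.2 and 66.5 CPM in WT and 61.1, 59.1 and 64.8 CPM in Fmr1-KO. The groups did not overlap, but the change was small, with a log2 fold-change of -0.10 (SE 0.04; adjusted P 0.0405) that lost its call with DESeq2, with upper-quartile normalization and without most of the single libraries. Wnt7b did not pass the threshold (0.05, adjusted P 0.305). Wnt5a, a ligand best known for beta-catenin-independent signalling, rose from 53.8 ± 1.07 to 59.3 ± 0.26 CPM (log2 fold-change 0.14, adjusted P 0.00444).

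The larger differences among ligands were in genes of low level. Wnt2b, a ligand expressed by the embryonic cortical hem, had 0.98, 0.85 and 0.78 CPM in WT and 1.75, 1.67 and 2.82 CPM in Fmr1-KO. All Fmr1-KO libraries lay above all WT libraries, and Fmr1-KO replicate 3 was the highest, with 98 counts against 57 and 51 in the other two. The log2 fold-change was 1.27 (SE 0.22; adjusted P 9.05e-05), and it was 0.97 without that library. Wnt2b lies on the minus strand of chromosome 3, from 104945272 to 104961921 in GRCm38. Its mean was 2.39 times that of WT.

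Wnt8b, also a ligand of the cortical hem and embryonic hippocampal primordium, had 1.15, 1.09 and 0.99 CPM in WT and 2.09, 1.47 and 1.26 CPM in Fmr1-KO. The groups did not overlap, and Fmr1-KO replicate 1 was the highest. The log2 fold-change was 0.57 (SE 0.21; adjusted P 0.0321), and it was 0.34 with an adjusted P of 0.244 without Fmr1-KO replicate 1. The gene lies on the plus strand of chromosome 19, from 44493472 to 44514273. Wnt9a rose from 6.85 ± 0.34 to 9.08 ± 0.06 CPM, with a log2 fold-change of 0.41 (SE 0.08; adjusted P 0.000412). Its neighbour Wnt3a lies 16175 bp away on chromosome 11 and is the hem ligand that was too low to be tested, at 0 to 1 counts in WT and 6 to 11 counts in Fmr1-KO.

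Of the other ligands, Wnt5b, Wnt4, Wnt3, Wnt2 and Wnt11 were not called, with log2 fold-changes from -0.18 (Wnt2) to 0.12 (Wnt5b). Wnt2 and Wnt11 had SEs of 0.38 and 0.33, so that a change of the size seen in Wnt8b would not have been detectable in them at this depth. Genes that mark the hem and its surroundings moved in both directions. Of the list of 8 for the hem and its Cajal-Retzius neurons, Lmx1a, a hem transcription factor, rose by 0.65 and Trp73 by 0.24 on the log2 scale. Reln, Calb2, Lhx1, Lhx5, Ebf3 and Ndnf were called lower. The list summed to 243 to 274 CPM in WT and 109 to 139 CPM in Fmr1-KO. Most of the WT sum was Reln, which had 159 to 184 CPM in WT and 47.0 to 63.8 CPM in Fmr1-KO. The 8 genes of the choroid plexus, which forms beside the hem, summed to 1068 to 1125 CPM in WT and 1475 to 1781 CPM in Fmr1-KO, Ttr making up most of it. The part of these cells in the ligand differences was not tested.

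Among the 10 Frizzled receptors, 5 rose and none fell (of all tested genes, 20.7% rose and 21.9% fell). The others lay between -0.09 (Fzd9) and 0.38 (Fzd10) in log2 fold-change. Summed per length, Frizzled RNA was 55.7 ± 1.15 CPM per kb in WT and 64.6 ± 0.44 CPM per kb in Fmr1-KO, a difference of 16.0%. Fzd3, a receptor of axon guidance and planar polarity, was the most abundant per length in both genotypes, at 21.8 and 23.1 CPM per kb. It had 288, 281 and 269 CPM in WT and 287, 302 and 298 CPM in Fmr1-KO, and the groups overlapped. Its log2 fold-change of 0.08 (SE 0.03; adjusted P 0.0442) had no call with DESeq2 or without WT replicate 3.

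Fzd5, a receptor of the beta-catenin branch, had 15.8, 15.5 and 14.9 CPM in WT and 25.4, 24.8 and 25.1 CPM in Fmr1-KO. Replicates lay within 1 CPM of each other in each genotype and the groups were far apart, with a log2 fold-change of 0.70 (SE 0.06; adjusted P 1.96e-09). Fzd5 lies on the minus strand of chromosome 1, from 64730558 to 64737751. Its promoter is the most GC-rich of the 4 printed above.

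Fzd8, which pairs with LRP6 as a receptor of the same branch, had 29.4, 32.0 and 28.7 CPM in WT and 43.7, 43.5 and 40.8 CPM in Fmr1-KO. The lowest Fmr1-KO library stood above the highest WT library, and the log2 fold-change was 0.51 (SE 0.05; adjusted P 4.35e-08). Fzd8 lies on the plus strand of chromosome 18, from 9212163 to 9218136. Fzd6, a planar polarity receptor, rose from 14.5 to 15.3 CPM in the WT libraries to 20.3 to 22.2 CPM in the Fmr1-KO libraries (log2 fold-change 0.50, adjusted P 1.11e-06). Fzd2 rose from 27.4 ± 0.20 to 36.4 ± 0.71 CPM (log2 fold-change 0.41, adjusted P 3e-07), whereas Fzd1 and Fzd7, which are closely related to it, were not called, at 0.06 (adjusted P 0.477) and 0.09 (adjusted P 0.349). The shares of Frizzled RNA moved accordingly, that of Fzd3 being 39.2% in WT and 35.7% in Fmr1-KO, and that of Fzd5 3.99% and 5.61%. The proliferation genes, all called higher, summed to 476 to 514 CPM in WT and 818 to 877 CPM in Fmr1-KO. Of 8 neural progenitor genes, 3 were called higher and 1 lower (of all tested genes, 20.7% and 21.9%). The part of both gene lists in the rise of the receptors was not tested.

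The LRP co-receptors changed little. Lrp6 had 132, 125 and 126 CPM in WT and 133, 142 and 134 CPM in Fmr1-KO, and the lowest Fmr1-KO library exceeded the highest WT library by little. The log2 fold-change was 0.10 (SE 0.04; adjusted P 0.0319), without a call in DESeq2. Lrp5 was not called (-0.04, adjusted P 0.523).

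**Figure D3:**
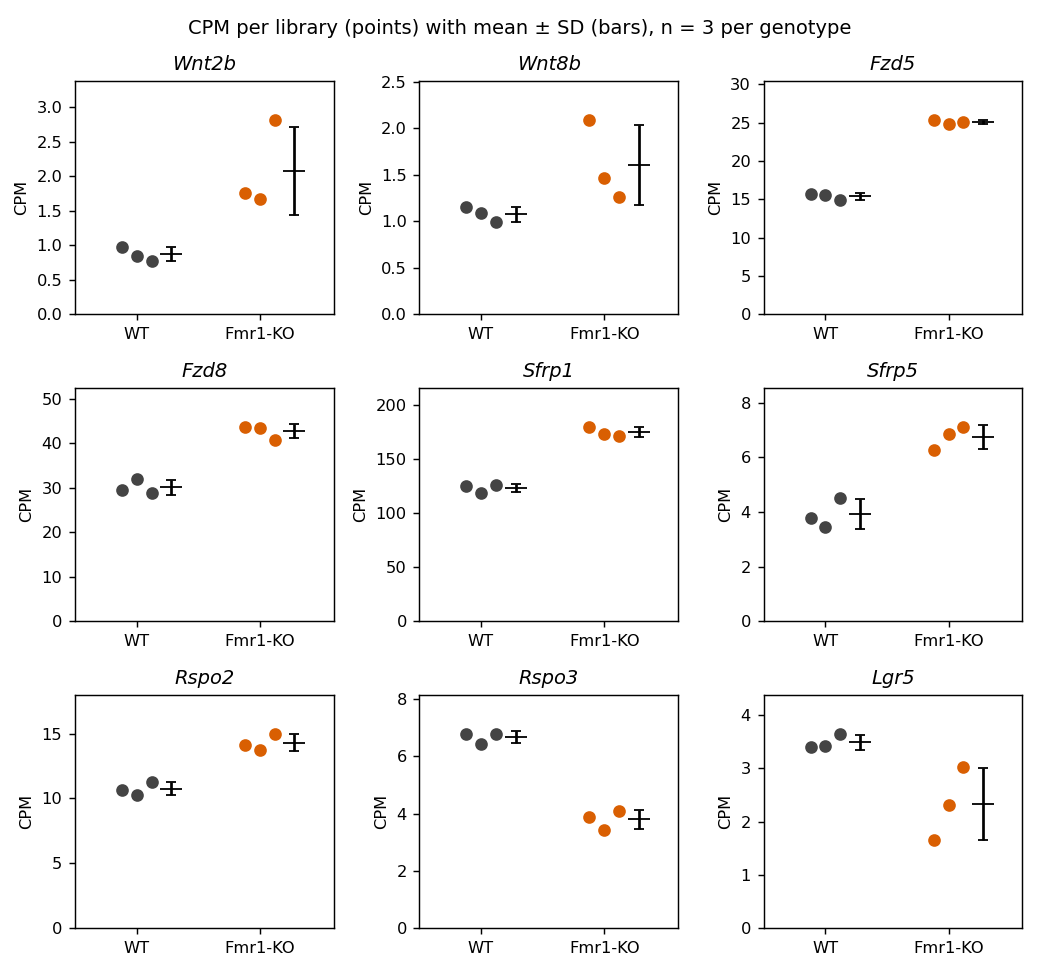
CPM (y axis, from 0) in each library of the 8 called genes with an absolute log2 fold-change of at least 0.5, and of Rspo2, with the mean ± SD (n = 3) beside the points of WT and Fmr1-KO. The groups do not overlap in any panel, and the Fmr1-KO points spread most in Wnt2b, Wnt8b and Lgr5.

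Of the 4 SFRP antagonists picked out by symbol, Sfrp1 and Sfrp5 rose. Sfrp1, secreted by cortical progenitors and astrocytes, carried most RNA of these 4, 72.3% of their sum per length in WT and 77.7% in Fmr1-KO. It had 125, 119 and 126 CPM in WT and 180, 173 and 171 CPM in Fmr1-KO. The groups were far apart relative to their spread, and the log2 fold-change was 0.51 (SE 0.03; adjusted P 1.2e-10). Sfrp1 lies on the plus strand of chromosome 8, from 23411502 to 23449632. Summed over these 4 genes, the level was 39.0 ± 0.88 CPM per kb in WT and 51.5 ± 0.48 CPM per kb in Fmr1-KO. The sum leaves out the family member Frzb, which fell, at 3.60 CPM per kb in WT and 0.926 CPM per kb in Fmr1-KO.

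Sfrp5 had 3.77, 3.45 and 4.52 CPM in WT and 6.27, 6.86 and 7.13 CPM in Fmr1-KO. The groups did not overlap, and its log2 fold-change of 0.79 (SE 0.11; adjusted P 6.05e-06) was the second largest increase among the 41 genes. Sfrp5 lies on the minus strand of chromosome 19, from 42197971 to 42202252. Sfrp2 and Sfrp4 were not called, at -0.14 (adjusted P 0.097) and -0.07 (adjusted P 0.704), and Sfrp2 was called lower without Fmr1-KO replicate 3. Within a library, the log2 ratio of Sfrp1 to Sfrp2 CPM was 2.84 ± 0.11 in WT and 3.49 ± 0.12 in Fmr1-KO (SD, n = 3). This ratio does not depend on library scaling.

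Dkk3 was the WNT gene with the highest level per length in WT, 32.5 CPM per kb. It is a divergent DKK family member that is widely expressed in neurons. It had 116, 101 and 110 CPM in WT and 97.9, 102 and 109 CPM in Fmr1-KO, and the groups overlapped (log2 fold-change -0.09, adjusted P 0.119). It was called lower when WT replicate 2 was removed (-0.14, adjusted P 0.0116) or when Fmr1-KO replicate 3 was removed (-0.13, adjusted P 0.0319). Its value ranged from -0.14 to -0.046 (the latter without WT replicate 1) when each library was left out in turn. Dkk2, an LRP ligand, was near the lower limit at 13 to 20 counts per library. Its Fmr1-KO libraries lay above its WT libraries, but the difference of 0.39 had an SE of 0.28 and was not called.

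Axin2, a direct and widely used readout of beta-catenin signalling, showed no detectable difference. It had 30.3, 32.2 and 31.1 CPM in WT and 31.7, 31.7 and 32.1 CPM in Fmr1-KO. The values overlapped, and the log2 fold-change was 0.03 with an SE of 0.05 (adjusted P 0.675). Axin1, the scaffold of the degradation complex, had 65.1, 64.9 and 66.3 CPM in WT and 65.5, 63.0 and 68.5 CPM in Fmr1-KO, with a log2 fold-change of 0.01 (SE 0.04; adjusted P 0.917). Both had SEs well under the changes seen in Fzd5 or Sfrp1.

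The R-spondins moved in opposite directions. Rspo3 had 6.79, 6.44 and 6.80 CPM in WT and 3.87, 3.43 and 4.08 CPM in Fmr1-KO. The highest Fmr1-KO library was well below the lowest WT library, and the log2 fold-change of -0.81 (SE 0.10; adjusted P 1.47e-06) was the lowest among the 41 genes. Rspo3 lies on the minus strand of chromosome 10, from 29452416 to 29535867. Rspo2 had 10.6, 10.3 and 11.3 CPM in WT and 14.1, 13.7 and 15.0 CPM in Fmr1-KO, without overlap (log2 fold-change 0.41, SE 0.07; adjusted P 7.11e-05). Rspo1 was near the lower limit, with 20 to 26 counts in WT and 30 to 35 counts in Fmr1-KO. Its log2 fold-change of 0.57 had an adjusted P of 0.0555, and it was called with library totals alone, without WT replicate 2 and without Fmr1-KO replicate 3.

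Per length, Rspo3 and Rspo2 were alike in WT, at 2.16 and 2.10 CPM per kb, and unlike in Fmr1-KO, at 1.23 and 2.79 CPM per kb. The log2 ratio of Rspo2 to Rspo3 CPM was 0.65, 0.67 and 0.73 in the WT libraries and 1.86, 2.00 and 1.88 in the Fmr1-KO libraries. The ratios did not overlap. Among 6 pairs of WNT genes whose ratios were compared after their values had been seen, this difference of 1.23 was the largest. Each pair gave an exact permutation P of 0.1 (2-sided, and 0.1 after Benjamini-Hochberg adjustment over the 6 pairs), the smallest that 3 against 3 libraries allow. The adjustment does not cover the choice of pairs from seen values, so this P cannot weigh the differences. The sum over the 3 R-spondins was 4.61 ± 0.11 CPM per kb in WT and 4.54 ± 0.16 CPM per kb in Fmr1-KO.

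Of the 3 LGR receptors, which bind R-spondins, Lgr4 and Lgr5 fell. Lgr4, the main LGR of these cultures with 78.6% of the summed level per length in WT, had 33.7, 32.8 and 34.6 CPM in WT and 29.3, 28.9 and 28.3 CPM in Fmr1-KO. The groups did not overlap, and the log2 fold-change was -0.23 (SE 0.05; adjusted P 0.00058). Lgr5, a stem cell marker of several epithelia, had 3.39, 3.42 and 3.66 CPM in WT and 1.66, 2.32 and 3.02 CPM in Fmr1-KO. The Fmr1-KO libraries were all under the WT range, but they differed widely among themselves. Lgr5 had a log2 fold-change of -0.57 (SE 0.16; adjusted P 0.00697), which was -0.38 (adjusted P 0.0549) without Fmr1-KO replicate 1. Lgr5 lies on the minus strand of chromosome 10, from 115450311 to 115587780. Lgr6 was not called (-0.07, adjusted P 0.572), and its groups overlapped.

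Among the TCF/LEF factors, which bind DNA and carry beta-catenin to its targets, Tcf7l2 and Tcf7l1 fell. Tcf7l1, the most abundant of the 4 per length and mainly a repressor, had 39.2, 35.5 and 38.9 CPM in WT and 35.8, 32.9 and 33.9 CPM in Fmr1-KO. The groups overlapped, and the log2 fold-change was -0.15 (SE 0.05; adjusted P 0.0238), with no call in DESeq2. Tcf7l2 fell from 29.2 ± 0.96 to 22.2 ± 1.72 CPM, without overlap (log2 fold-change -0.40, SE 0.06; adjusted P 9.78e-06). Tcf7l2 is also expressed by maturing oligodendrocytes, and the 8 genes of the oligodendrocyte lineage, all called lower, summed to 1933 to 2101 CPM in WT and 1099 to 1185 CPM in Fmr1-KO. The part of these cells in the fall of Tcf7l2 was not tested. Lef1 and Tcf7 were not called, at 0.31 (adjusted P 0.149) and -0.07 (adjusted P 0.669).

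**Figure D4:**
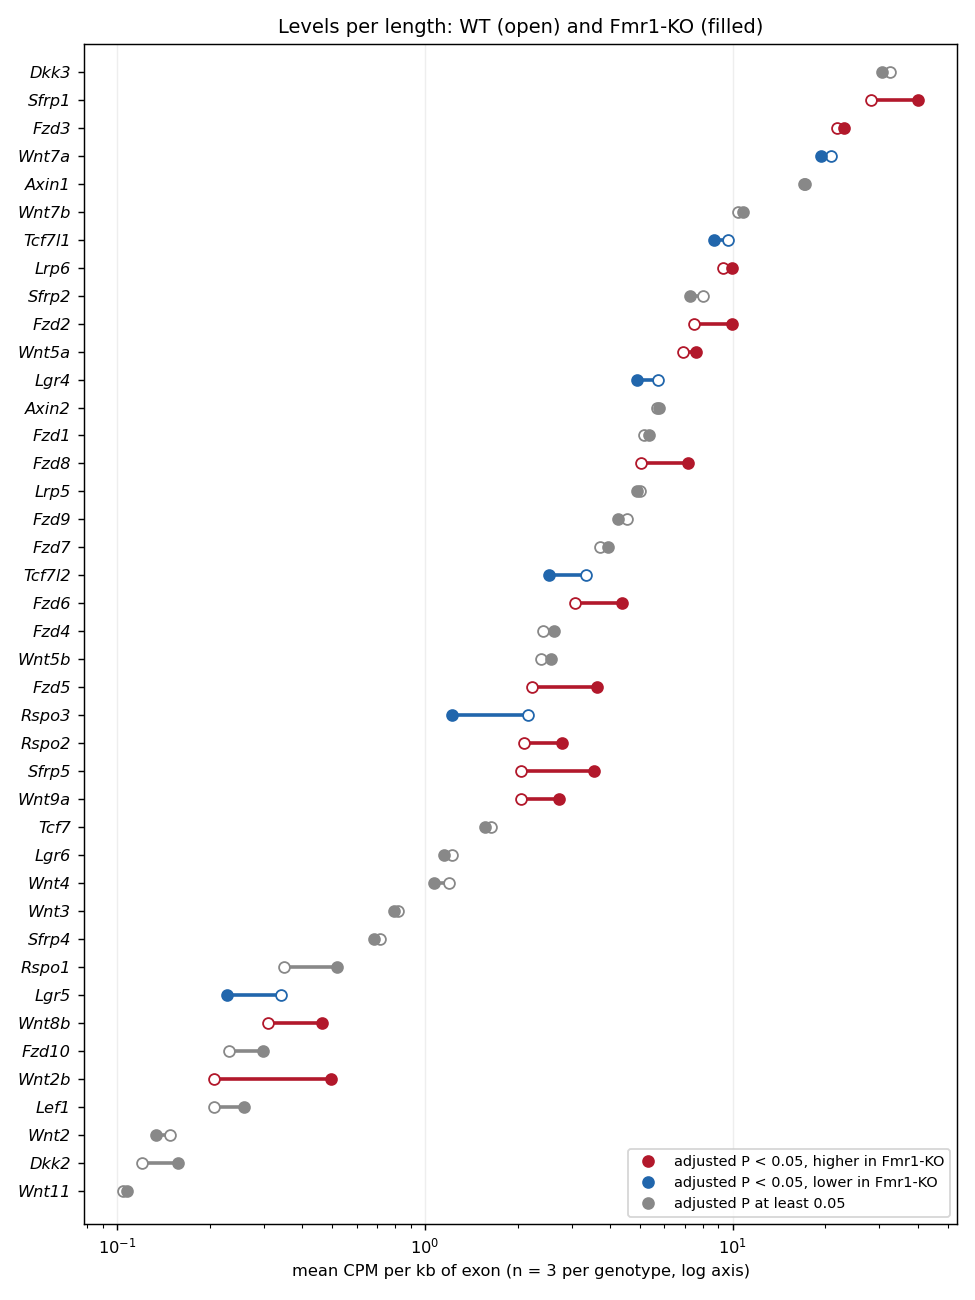
Mean CPM per kb of exon (x axis, log scale; n = 3 per genotype) of the 41 genes in order of their WT level, with open circles for WT and filled circles for Fmr1-KO, coloured by call. Levels run from 0.105 CPM per kb (Wnt11) to 32.5 CPM per kb (Dkk3) in WT, and the widest gaps between the circles are those of Wnt2b and Rspo3.

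The levels of the 41 genes spanned a wide range. Wnt2b, Wnt8b and Lgr5 were among the lowest called genes, at 0.207, 0.309 and 0.340 CPM per kb in WT, whereas Sfrp1, Fzd3 and Wnt7a stood above 20 CPM per kb. The median coefficient of variation between replicates was 4.73% in WT and 5.96% in Fmr1-KO for the WNT genes, and 4.57% and 4.67% for all tested genes.

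Genes that act with the WNT genes were compared as 7 lists, which held 75 genes with a row, 70 of them tested. Of the 70, 16 fell and 21 rose (of all tested genes, 21.9% fell and 20.7% rose). Scaling by library totals alone gave 12 lower and 26 higher, and DESeq2 gave 16 lower and 14 higher. Among the 4 secretion and processing genes, Wls, the carrier that WNT proteins need for secretion, rose by 0.23 (adjusted P 5.83e-05), and Notum, an enzyme that removes the lipid of WNT proteins, rose by 0.77 from a low level of 0.43 CPM (adjusted P 0.0376). Of 12 other receptors and modulators, 4 rose and none fell. They included Gpc4, a glypican that binds WNT proteins, at 0.35 (adjusted P 3.53e-07), the WNT5A receptor Ror2 at 0.34 (adjusted P 0.0117) and the DKK receptor Kremen1 at 0.14 (adjusted P 0.0255). Gpc4 lies on chromosome X.

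Of 10 genes in the list of other inhibitors, 2 fell and 6 rose (of all tested genes, 21.9% fell and 20.7% rose). The 6 include Ndp on chromosome X (0.37, adjusted P 0.000176), which encodes Norrin, a ligand that activates FZD4 with LRP5 and is thus not an inhibitor of the pathway. Frzb, the SFRP family member also called Sfrp3, had the largest absolute log2 fold-change among the tested genes of the 7 lists and the 41 WNT genes. It had 11.3, 12.1 and 11.6 CPM in WT and 3.14, 3.07 and 2.79 CPM in Fmr1-KO, with a log2 fold-change of -1.96 (SE 0.09; adjusted P 7.73e-13). Its direction was opposite to that of Sfrp1 and Sfrp5. Nkd2, which binds Dishevelled, fell by 0.54 (adjusted P 4.86e-06). Draxin, a guidance protein that acts as a WNT antagonist, rose by 0.48 (adjusted P 3.58e-10), Shisa2, of a family that holds back Frizzled maturation, by 0.43 (adjusted P 0.000119), and Sostdc1, a secreted inhibitor that is also made by the choroid plexus, by 0.40 (adjusted P 0.000452).

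In the Dishevelled and destruction complex list, 4 of 15 genes fell and 2 rose, all by little (of all tested genes, 21.9% fell and 20.7% rose). Ctnnb1, which encodes beta-catenin, rose by 0.18 (adjusted P 1.24e-05) and Dvl2, a Dishevelled, by 0.29 (adjusted P 3.34e-05). Amer1 fell by 0.16 (adjusted P 0.0178), Gsk3a by 0.13 (adjusted P 0.00177) and Tnks2 by 0.08 (adjusted P 0.0247). Amer1 is X-linked. Among 12 nuclear partners of beta-catenin, the co-repressor Tle1 rose by 0.45 (adjusted P 9.75e-10) and the co-activator Crebbp by 0.11 (adjusted P 0.028), whereas Ctnnbip1, which blocks the binding of beta-catenin to TCF factors, fell by 0.16 (adjusted P 0.00398) and the kinase Tnik by 0.12 (adjusted P 0.00671).

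The planar cell polarity genes held some of the larger differences, with 3 of 11 lower and 5 higher (of all tested genes, 21.9% and 20.7%). Prickle2 had 81.1, 75.0 and 80.1 CPM in WT and 40.0, 38.4 and 41.4 CPM in Fmr1-KO (log2 fold-change -0.98, SE 0.04; adjusted P 1.88e-13). Its paralog Prickle1 fell by 0.59 (adjusted P 7.11e-08). Celsr1, an atypical cadherin of the same system, rose from 124 ± 1.71 to 186 ± 8.18 CPM (log2 fold-change 0.58, adjusted P 2.29e-11), and its paralog Celsr2 fell by 0.09 (adjusted P 0.0153). Vangl2 rose by 0.23 (adjusted P 6.68e-06) and Invs by 0.19 (adjusted P 0.0392).

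**Figure D5:**
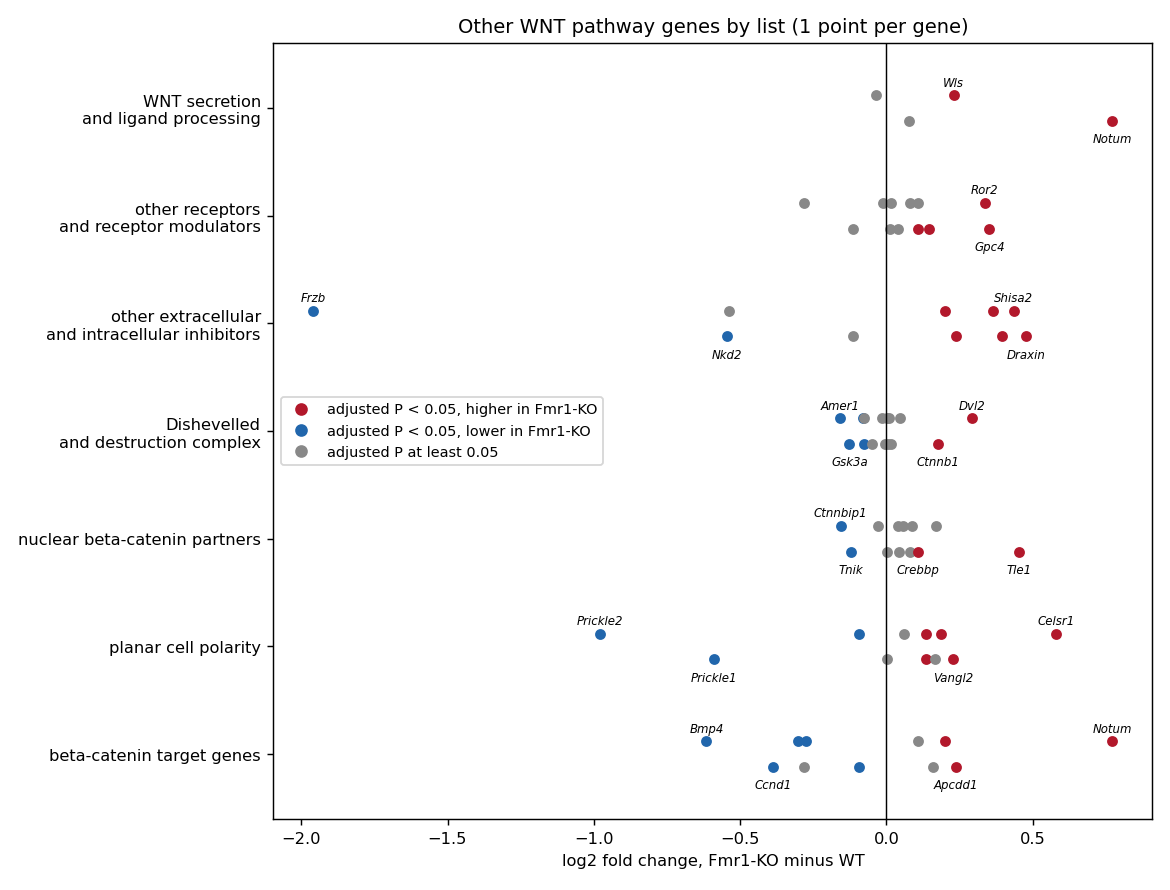
Log2 fold-change (x axis, Fmr1-KO minus WT) of each tested gene in 7 lists of other WNT pathway genes, 1 point per gene, with up to 2 called genes per list and direction named. Frzb lies farthest to the left at -1.96 and Notum, which is in 2 lists, farthest to the right at 0.77.

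The listed target genes of beta-catenin did not move together. The list holds none of the 41 WNT genes, and so leaves out Axin2. Of its 11 genes with a mean of at least 10 counts, 5 fell, 3 rose and 3 were not called. Their median log2 fold-change was -0.09. Of all tested genes, 21.9% fell and 20.7% rose. Bmp4, a secreted patterning factor, had 27.4, 28.9 and 26.5 CPM in WT and 17.3, 20.1 and 16.7 CPM in Fmr1-KO (log2 fold-change -0.61, adjusted P 1.2e-07). Ccnd1, a cyclin of the cell cycle, fell by 0.39 (adjusted P 3.61e-05) and Myc by 0.30 (adjusted P 2.48e-06), while the 8 proliferation genes were all called higher. Tnfrsf19 fell by 0.27 (adjusted P 7.5e-06) and Id2 by 0.09 (adjusted P 0.0136). The genes that rose are feedback inhibitors of the pathway, namely Apcdd1 by 0.24 (adjusted P 6.81e-05), Nkd1 by 0.20 (adjusted P 0.037) and Notum. The feedback ubiquitin ligases Znrf3 and Rnf43 were not called, at 0.11 (adjusted P 0.15) and -0.28 (adjusted P 0.182), and neither was Sp5, at 0.16 (adjusted P 0.733).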

How the data were processed

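RNA-seq counts of 6 libraries of cultured P1 mouse cortical cells, 3 WT and 3 Fmr1-KO by their labels, were analysed. Values were deposited by the authors as raw counts per gene symbol, without normalization. By their methods, poly(A) RNA was sequenced with a stranded kit, and reads were trimmed, aligned to GRCm38.p6 with STAR and counted over exons by strand with featureCounts (STAR 2.7.6a and Subread 2.0.1 in the submitters' processing notes). Such counts keep antisense genes apart but do not separate isoforms or reads shared by near-identical paralogs. None of the 41 genes shares exon bases with another gene on its strand.

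Genes were tested with edgeR 4.0.16 in R 4.3.3 (filterByExpr, TMM, glmQLFit, glmQLFTest, genotype as the only term, 2-sided, Benjamini-Hochberg adjustment over all 16976 genes). The SE is the log2 fold-change divided by the square root of F. CPM are TMM-scaled. Exon lengths and positions came from GENCODE M21 on GRCm38, promoters from RefSeq on GRCm38.p6. Totals of 30348556 to 35126207 counts leave a gene of 10 counts with wide counting error.

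The members and gene lists were chosen with earlier results of these data known. Full values are given for called members with an absolute log2 fold-change of at least 0.5 and for the most abundant member of each role. Up to 3 called genes per pathway list and direction are named, besides all tested genes of the beta-catenin target list. Ratios of gene pairs and the promoters printed were chosen after values had been seen. Tiki1 was not analysed here. Alternatives were DESeq2 1.42.0, other scalings (RLE, upper quartile, totals only), other filters on low genes (none, or a mean of 5 CPM), the replicate number as a block, the removal of each library in turn and a minimum fold change of 1.2 (glmTreat). The scripts were tested on simulated data.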

Additional observations from a re-analysis of the deposited data

How the results depend on the processing

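The counts of calls stayed within 1.5 times the reported ones in every setting except the required fold. A minimum fold change of 1.2 left 1340 lower and 883 higher of all genes, 2 lower and 8 higher of the 41 WNT genes, and 5 lower and 5 higher of the other pathway genes, because smaller changes no longer count. Leaving out each library gave 4 to 7 WNT genes lower and 10 to 13 higher, and a median log2 fold-change of 0.042 to 0.088. With DESeq2, 4 WNT genes were lower and 10 higher. Library totals alone gave 4 and 14, and shifted the median of all genes by 0.03. The replicate block gave 3694 lower and 3488 higher of all genes and 6 and 13 of the WNT genes; same-numbered libraries did not deviate together (correlations of -0.03, 0.03 and -0.01), so the numbers do not pair them.

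Of 575 recomputed values of Fmr1 and the 41 WNT genes, 521 kept their direction and their side of the threshold, 39 lost a call, 6 gained one and 9 changed sign. All 9 came from leaving out a library in genes that were not called, with ranges of -0.19 to 0.26 for Wnt11, -0.58 to 0.053 for Wnt2, -0.13 to 0.039 for Wnt3, -0.21 to 0.016 for Fzd9 and -0.027 to 0.034 for Axin1. The 13 WNT genes left out by the stricter filter have no value there. Depth limits what can be said of Wnt2, Wnt11, Dkk2, Rspo1, Fzd10, Wnt8b and Wnt2b, which had 7 to 98 counts per library.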
